A study of Homo sapiens with 56 samples.

Results

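The nuclear-encoded subunits of the oxidative phosphorylation complexes were followed by RNA-seq across cultured lines of human mantle cell lymphoma. A gene was counted as a subunit where the table annotated it as protein coding, placed it outside chromosome M and gave it a symbol of the families NDUFA, NDUFB, NDUFC, NDUFS and NDUFV, SDHA to SDHD, UQCR, COX4 to COX8, or ATP5F, ATP5M and ATP5P. This rule found 81 of 21580 named rows outside chromosome M: 36 subunits of complex I, 4 of complex II, 9 of complex III, 14 of complex IV (with NDUFA4) and 18 of complex V. A further 24 rows with a matching symbol were annotated as pseudogenes and left out. Values are CPM (reads of a gene scaled to a fixed library total) after the 15 rows of chromosome M were removed and each library was rescaled to 1000000. Of the 81 subunits, 79 reached 1 CPM in at least 2 samples and were tested. COX6B2 and COX8C, isoforms known from testis, did not, with a maximum of 1.33 CPM in a sample for COX6B2 and 0.180 CPM for COX8C, and the isoforms COX4I2, COX6A2, COX7A1 and COX7B2 were not analysed here.

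The study asked whether blocking BIRC5 (survivin) or MCL-1 helps against drug resistance in mantle cell lymphoma, a B-cell lymphoma. Its 56 poly-A libraries came from 4 established cultures: MINO-P, with 15 libraries, MINO-VR, with 13, JEKO-1, with 15, and Z138, with 13. Cells carried the code CON, which is read here as untreated, or received an agent. The agents were CLF, BTZ, IBR, the survivin suppressant YM155 and the MCL-1 inhibitor S63845, alone or as BTZ_CLF, BTZ_YM155, BTZ_S63845, IBR_CLF, IBR_YM155 and IBR_S63845. No dose or time stood in the labels, no genotype or transgene was named, and the codes CON, CLF, BTZ, IBR, P and VR are kept as given. Each line is 1 culture, and nothing stated that libraries of a group came from separate cultures, so p-values measure the spread between these samples, which may be technical.

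Oxidative phosphorylation takes place at the inner mitochondrial membrane. Complexes I and II pass electrons from NADH and succinate to ubiquinone, complex III passes them on to cytochrome c, complex IV passes them to oxygen, and complex V, the ATP synthase, uses the resulting proton gradient to make ATP. Complex II is made of nuclear-encoded subunits only, whereas the other complexes combine them with subunits encoded on chromosome M. Nuclear respiratory factor 1 (NRF1), GABPA of the ETS family and YY1 are known activators of many of these genes.

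Promoters are shown for 3 subunits whose windows held a motif searched for below. SDHD had the largest difference between lines, and SDHB and COX4I1 came from the panel of 1 representative per complex. The windows of the other panel genes, NDUFB8, UQCRC2 and ATP5F1A, held none of these motifs. Those of NDUFV2, UQCRC1, NDUFV1 and NDUFC1 also held none. The windows run from 120 bases before to 30 bases after the RefSeq start, 5′ to 3′ on the gene's strand (GRCh38.p14), with capitals marking the searched motifs. They cover chr11:112086753-112086902 on the plus strand for SDHD, chr1:17054003-17054152 on the minus strand for SDHB and chr16:85799575-85799724 on the plus strand for COX4I1.
SDHD: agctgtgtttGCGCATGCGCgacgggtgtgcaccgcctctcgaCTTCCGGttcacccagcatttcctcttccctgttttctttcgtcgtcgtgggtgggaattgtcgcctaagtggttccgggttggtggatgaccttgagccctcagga
SDHB: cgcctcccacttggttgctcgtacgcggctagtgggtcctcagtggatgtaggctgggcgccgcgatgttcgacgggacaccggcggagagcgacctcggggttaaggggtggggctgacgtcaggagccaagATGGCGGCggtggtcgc
COX4I1: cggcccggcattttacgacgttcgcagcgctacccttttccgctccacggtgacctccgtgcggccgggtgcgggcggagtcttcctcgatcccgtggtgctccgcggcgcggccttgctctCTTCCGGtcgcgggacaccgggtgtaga

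Motifs of 3 kinds were searched on both strands in the RefSeq promoter table, from 250 bases before to 50 bases after each start, where 66 of the 81 subunits had an entry. The NRF1-type letters GCGCATGC stood in 13 of these 66 promoters (19.7%), against 3.27% of all 27305 promoters in the table and 5.29% of the 12342 promoters of tested genes. The ETS-type letters CCGGAAG stood in 20 (30.3%), against 10.7% of all promoters and 18.2% of those of tested genes. The YY1-type letters ATGGCGGC stood in 12 (18.2%), against 3.21% and 5.76%. The SDHD window held the NRF1-type letters on both strands, overlapping each other, and the ETS-type letters once. A match of letters describes the window and says nothing about binding in these cells.

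Recovered depth, with chromosome M included, ran from 5500000 to 21500000 reads per library, with a median of 16000000. On the deposited scale, 3 reads were thus worth 0.139 to 0.546 CPM. After chromosome M was removed and libraries were rescaled, 3 reads were worth more than this. The increase was largest in libraries with a high share of reads on chromosome M. The B-cell gene MS4A1 (205.8 to 2039 CPM) and CCND1 (207 to 3252 CPM), the cyclin gene activated in mantle cell lymphoma, were present in all 56 libraries, while the T-cell genes CD3E and CD2 never reached 1 CPM and the epithelial gene EPCAM reached it in 53 libraries, with a maximum of 21.5 CPM. A set of 8 pairs of libraries from MINO-P, MINO-VR and JEKO-1, whose names differed only by a final a, were far closer than other libraries of a group and were averaged, leaving 48 samples. The JEKO-1 BTZ_CLF pair was the least alike, with 80.5% and 65.5% of reads on chromosome M and summed subunit levels of 7371 and 9214 CPM. In Z138, 5 treatments had a library with and one without a final A; these were not alike and stayed separate samples. The gap within these Z138 pairs had the same direction in all 5 for 10 subunits with A higher and 20 with A lower, of 78, and UQCRHL was higher in the A library each time, by a median of 2.38 on the log2 scale.

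One library stood apart. In JEKO-1 BTZ replicate 3, genes fell off steeply with the GC content of their transcripts. With genes split into 4 equal GC classes and set against their median over all libraries, the highest class minus the lowest was -2.80 on the log2 scale, whereas this gap lay between -0.39 and 0.41 in the other 55 libraries. The subunits of JEKO-1 BTZ replicate 3 followed the same order. Against JEKO-1 BTZ replicates 1 and 2, the 11 subunits in the highest GC class had a median difference of -3.09 on the log2 scale, beside -1.80 for all genes of that class. The 16 subunits in the lowest class had -0.56, beside 1.00 for all genes of that class. The counts and the named subunits of BTZ against CON are therefore given with and without this library.

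The samples also differed by the range of their library names. In all 5 groups that had samples both in the range MCL20-37 and in an earlier range, most subunits were lower in MCL20-37: 65 to 74 of 79, with medians of -1.33 in JEKO-1 BTZ, -0.68 in JEKO-1 IBR, -0.62 in JEKO-1 CLF, -0.56 in MINO-VR IBR and -0.52 in MINO-P IBR. The medians of all genes in the same groups lay between -0.03 and 0.14. The labels do not say what the names stand for.

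The summed level of the 81 subunits had a median of 7603 CPM in MINO-P, 7290 CPM in MINO-VR and 6943 CPM in Z138, with ranges that overlapped almost fully. JEKO-1 had a higher median, 9857 CPM, and a far wider range, from 3604 to 14662 CPM. Its CON sample stood at 14212 CPM and its CLF samples at 14662 and 10459 CPM. The IBR samples of JEKO-1 stood at 9857 and 7305 CPM, IBR_CLF at 11209 CPM, BTZ at 8228 and 3604 CPM, BTZ_CLF at 8293 CPM, YM155 at 8971 CPM and S63845 at 9932 CPM. Within the name range MCL1-10 alone, every JEKO-1 sample with IBR or BTZ was below CON and CLF. The share of reads on chromosome M, which is outside these sums, was 1.91% in JEKO-1 CON and 67.5% in JEKO-1 BTZ replicates 1 and 2, 73.0% in BTZ_CLF, 59.9% in IBR_CLF and 9.92% in BTZ replicate 3. Its part in the subunits' levels was not tested. In bulk RNA, fewer cells with a transcript and less transcript per cell cannot be told apart.

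**Figure D1:**
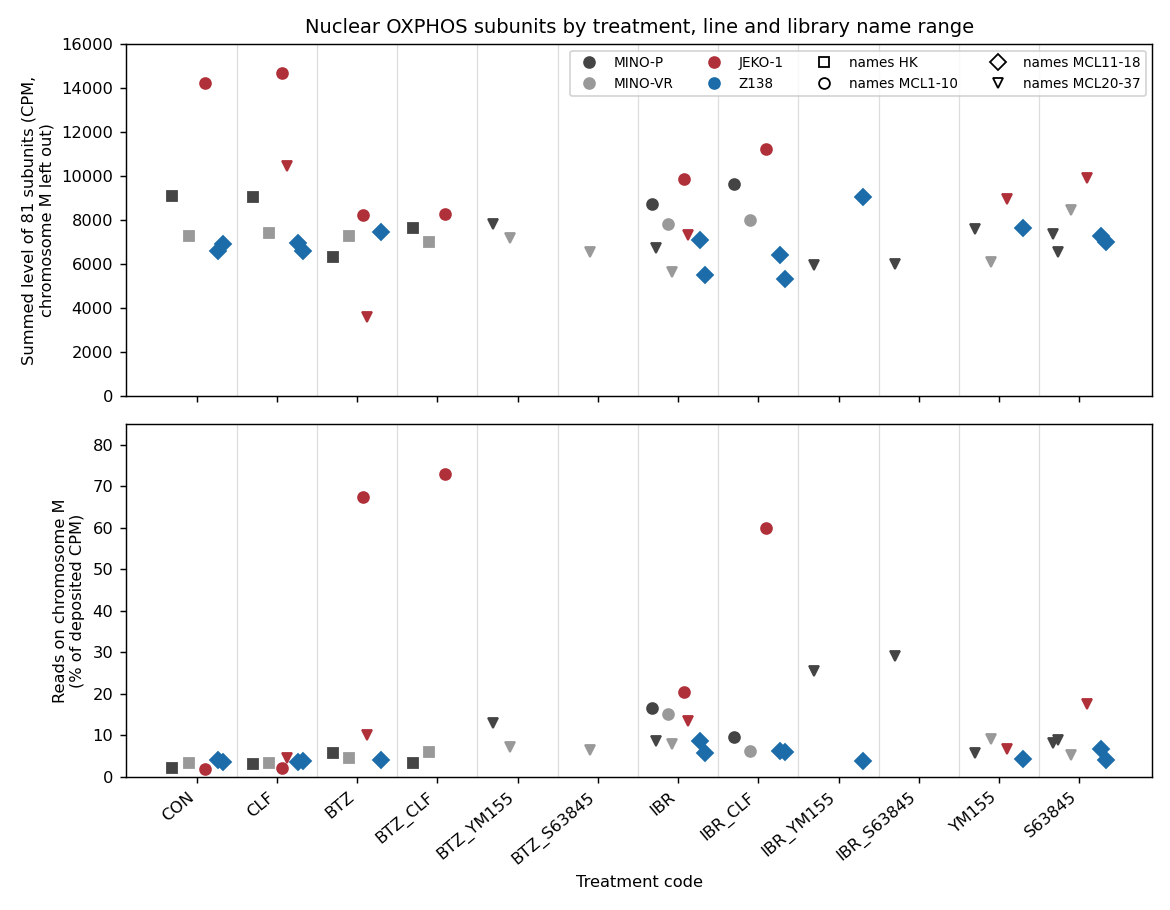
Summed CPM of the 81 nuclear subunits (upper panel) and the percentage of reads on chromosome M (lower panel) by treatment, with 1 point per sample, coloured by line and shaped by library name range. JEKO-1 CON and CLF lie highest, at up to 14662 CPM, and JEKO-1 BTZ replicate 3 lies lowest, at 3604 CPM.

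BTZ against CON lowered 16 of the 79 subunits tested and raised none (limma, adjusted p under 0.05, 5 BTZ and 5 CON samples), against a background of 12.8% of all 16755 genes lower and 4.0% higher. The median subunit changed by -0.55 on the log2 scale and the median gene by -0.19. Without JEKO-1 BTZ replicate 3, 9 subunits were lower and 0 higher, against 14.2% and 6.56% of all genes. The median subunit was then at -0.19, beside -0.16 for the median gene. The share of subunits called lower was thus below the background of this comparison once that library was left out. The 16 subunits had a median transcript GC content of 55.4%, and the other 63 had 46.9%.

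By complex, the 16 were 5 of complex I, 1 of complex II, 2 of complex III, 2 of complex IV and 6 of complex V, and the 9 called without JEKO-1 BTZ replicate 3 were 2, 1, 1, 2 and 3. Of these, 5 (UQCRC1, NDUFV1, SDHA, ATP5MC1 and NDUFV2) were called in all 4 fits run with and without the library and with and without removal of each sample's trend with GC content. UQCRC1, a core protein of complex III (chr3:48599002-48610977), stood at 137.1, 120.4, 215.7, 116.4 and 166.8 CPM in CON of MINO-P, MINO-VR, JEKO-1 and the 2 Z138 samples. Its BTZ values were 73.8, 100.7, 67.6, 1.55 and 101.7 CPM in MINO-P, MINO-VR, JEKO-1 replicates 1 and 2, JEKO-1 replicate 3 and Z138. Each BTZ sample was below every CON sample. The fold change of UQCRC1 was -1.83 ± 0.52 (SE, limma adjusted p = 0.0131), and without JEKO-1 BTZ replicate 3 it was -0.82 (limma adjusted p = 0.00609).

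NDUFV2, an iron-sulfur subunit of the NADH-oxidising arm of complex I (chr18:9102630-9134346), has a transcript GC content of only 41.3% and was little touched by the odd library. Its level was 114.6, 84.4, 81.2, 49.3 and 58.4 CPM in CON, in the same order of lines, and 46.2, 59.3, 47.6, 43.0 and 27.1 CPM in BTZ (JEKO-1 replicate 3 at 43.0 CPM). In every line, BTZ was below CON. NDUFV2 fell by 0.91 (SE 0.19, limma adjusted p = 0.000988), and by 0.90 without JEKO-1 BTZ replicate 3 (limma adjusted p = 0.00081). It overlaps the tested antisense gene NDUFV2-AS1, whose reads cannot be told apart without strand.

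NDUFV1, the FMN-binding subunit beside NDUFV2, was at 103.7 to 209.7 CPM in CON and at 9.45 to 111.4 CPM in BTZ. The groups overlapped only between Z138 CON and MINO-VR BTZ. Its change was -1.44 ± 0.36 (SE, limma adjusted p = 0.00442), and -0.84 without JEKO-1 BTZ replicate 3 (limma adjusted p = 0.005). SDHA, the flavoprotein of complex II, ran from 148.4 to 314.3 CPM in CON and from 20.2 to 133.3 CPM in BTZ, with no overlap. SDHA fell by 1.28 (limma adjusted p = 0.00226), and by 0.90 without the library (limma adjusted p = 0.00566); its pseudogenes are near-identical copies, so its reads may be split. ATP5MC1, one of the genes for the c-ring of complex V, fell by 1.48 (limma adjusted p = 0.00621), and by 0.90 without the library (limma adjusted p = 0.0162), although MINO-VR stood at 45.7 CPM in CON and 61.9 CPM in BTZ.

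COX8A, a small subunit of complex IV, fell by 1.35 (limma adjusted p = 0.0126) and by 0.82 without JEKO-1 BTZ replicate 3 (limma adjusted p = 0.0491). ATP5F1D, the delta subunit of complex V with the highest GC content among the subunits (69.6%), fell by 1.75 with that library (limma adjusted p = 0.0477) and had -0.62 without it (limma adjusted p = 0.193). Of the panel of 1 representative per complex, ATP5F1A, the alpha subunit of the ATP synthase, was the only one called: 279.1 and 268.3 CPM in Z138 CON against 202.3 CPM in Z138 BTZ, and 1176, 625.5 and 896.2 CPM in CON of MINO-P, MINO-VR and JEKO-1 against 727.6, 584.8 and 465.5 CPM in BTZ, with JEKO-1 replicate 3 at 140.9 CPM. Its change was -0.89 ± 0.26 (SE, limma adjusted p = 0.014), and without JEKO-1 BTZ replicate 3 it was -0.53 (limma adjusted p = 0.0471). With the GC trend removed as well, the call was lost (-0.40, limma adjusted p = 0.178). NDUFB8, SDHB, UQCRC2 and COX4I1 had -0.73, -0.86, -0.19 and -0.55, with limma adjusted p of 0.247, 0.11, 0.584 and 0.357, and without that library they had -0.07, -0.23, -0.10 and 0.06, so that COX4I1 changed sign.

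**Figure D2:**
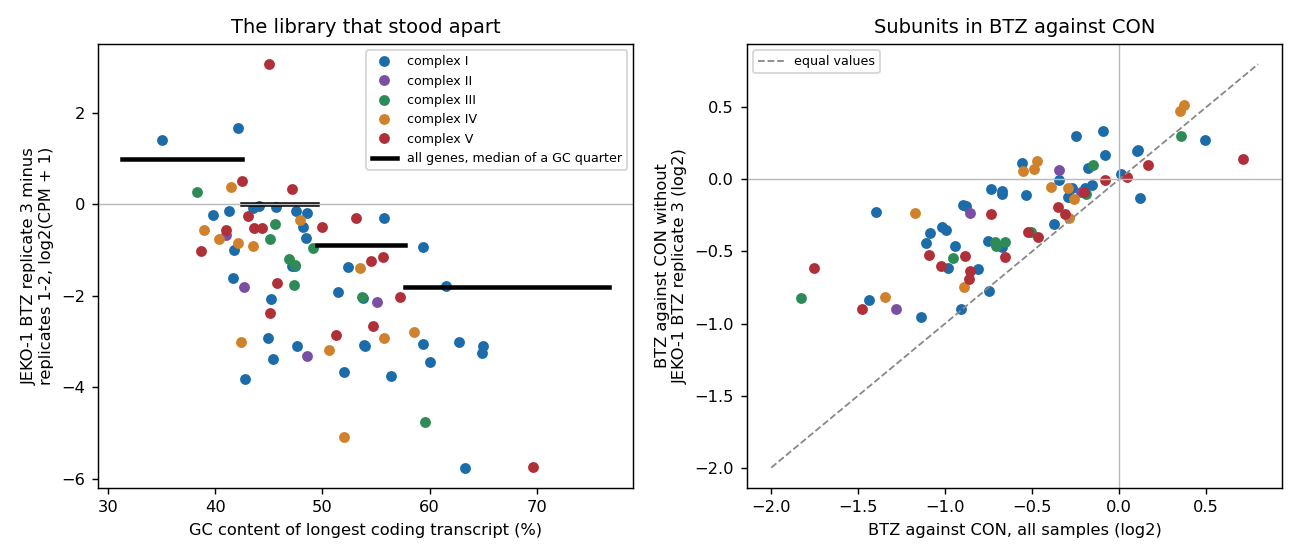
Left, difference of JEKO-1 BTZ replicate 3 from replicates 1 and 2 (log2(CPM + 1)) against transcript GC content, 1 point per subunit, with black bars for the median of all genes in each of 4 GC classes. Right, each subunit's log2 fold change of BTZ against CON with (x axis) and without (y axis) that library. The subunits fall off with GC content on the left, and most points lie above the dashed line of equal values on the right.

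Within lines, BTZ minus CON had a median subunit of -1.66 in JEKO-1 over both samples (-0.85 in replicates 1 and 2 alone, with 77 of 79 subunits lower), -0.54 in MINO-P, 0.06 in MINO-VR and 0.19 in Z138. The median gene differed by -0.15 in JEKO-1 over both samples and by -0.08 in replicates 1 and 2 alone. In MINO-P, MINO-VR and Z138 the median gene differed by -0.09, -0.07 and -0.24. A test of JEKO-1 against the other 3 lines, added after this was seen, called 0 of 79 subunits (limma, 33 at an unadjusted p under 0.05, median -1.43), and it called 0% of all genes higher and 0% lower. Without JEKO-1 BTZ replicate 3 the median was -0.77 and 11 subunits had an unadjusted p under 0.05.

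IBR against CON lowered 1 subunit, NDUFV2, and raised none, against 4.88% of all genes lower and 3.19% higher. The median subunit was at -0.17 and the median gene at 0.00 on the log2 scale. NDUFV2 ranged from 29.9 to 57.9 CPM over 8 IBR samples, with a median of 50.8 CPM. Every IBR sample was below every CON sample of its own line. In MINO-P and MINO-VR, however, the CON sample was of the library series HK and the IBR samples of the series MCL. In the CPM values of those lines, treatment and series cannot be told apart. The fitted change of NDUFV2 was -0.61 ± 0.19 (SE, limma adjusted p = 0.0393). Over 28 alternatives it kept its direction, with changes of -0.80 to -0.52 and limma adjusted p of 0.00273 to 0.303, 16 of them past 0.05. With the Z138 libraries paired by the final A of their names, 2 subunits were lower, a recount given without its share of all genes. BTZ and IBR share their CON samples. In the panel, ATP5F1A had -0.55 ± 0.25 (SE, limma adjusted p = 0.189), and the other 4 lay between -0.25 and 0.04.

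No subunit was called for CLF against CON (limma, 5 CON and 6 CLF samples, 0 at an unadjusted p under 0.05), the median was 0.02, and 0% of all genes passed in either direction. Within lines the medians were 0.05 in MINO-P, 0.02 in MINO-VR, 0.06 in Z138 and -0.23 in JEKO-1. There, 72 of 79 subunits were lower in the mean of the 2 CLF samples than in CON, and the median gene differed by -0.01. The summed level of JEKO-1 CLF replicate 1, in the same name range as CON, was 14662 CPM, beside 14212 CPM in CON. Only JEKO-1 CLF replicate 2, in the range MCL20-37, was below CON, at 10459 CPM. NDUFB8, an accessory subunit of complex I, stood at 222.8 CPM in JEKO-1 CON and 213.1 and 130.1 CPM in JEKO-1 CLF, and at 101.8 and 102.6 CPM in MINO-P CON and CLF. YM155 against CON also called 0 subunits (7 at an unadjusted p under 0.05), where 0.346% of all genes were higher and 0.173% lower, and the median subunit was at -0.26 beside 0.05 for all genes. SDHB, the iron-sulfur subunit of complex II, had the panel's largest fitted value: Z138 had 118.0 CPM with YM155 and 44.1 and 45.9 CPM in CON, MINO-P 71.2 and 61.1 CPM, MINO-VR 59.4 and 56.7 CPM, and JEKO-1 71.4 and 67.8 CPM. Its change of 0.67 ± 0.42 (SE) did not pass the test (limma adjusted p = 0.493). NDUFB8 was lower with YM155 in every line, at 54.0 against 101.8 CPM in MINO-P, 50.1 against 120.2 CPM in MINO-VR, 104.9 against 222.8 CPM in JEKO-1 and 39.0 against 46.5 and 63.8 CPM in Z138. However, the YM155 samples of JEKO-1 and of both MINO cultures were in the name range MCL20-37, and their CON samples were in other ranges. For these cultures, a fall with YM155 cannot be told apart from a difference between name ranges. Only Z138 had YM155 and CON in the same range. The fit adjusts for library series but not for name range, and there NDUFB8 had -0.51 (limma adjusted p = 0.69). S63845 against CON called 0 subunits (0 at an unadjusted p under 0.05; 0% of genes in either direction), with a median of -0.04.

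Adding a second agent called no subunit. BTZ_CLF against BTZ gave 0 of 79 (limma, 0 at an unadjusted p under 0.05; 0% of genes in either direction) with a median of 0.28, which was -0.01 without JEKO-1 BTZ replicate 3. IBR_CLF against IBR gave 0 (5 unadjusted; 0% of genes in either direction) with a median of 0.20, and IBR_YM155 against IBR gave 0 (1 unadjusted; 0% of genes in either direction) with a median of 0.11. BTZ_YM155 against BTZ gave 0 (12 unadjusted), beside 0.0358% of genes higher and 0.0179% lower. The median was 0.44, which was 0.13 without that library. SDHB had the panel's largest value here, 1.85 ± 0.56 (SE, limma adjusted p = 0.147; 1.11 and 0.188 without JEKO-1 BTZ replicate 3), from 41.9 to 132.5 CPM in MINO-P and from 59.1 to 71.6 CPM in MINO-VR. A test of whether CLF added to IBR acted differently in JEKO-1 than in the other lines called no subunit (limma, 0 of 78, 1 unadjusted; 0.0132% of genes higher, 0% lower), and the median subunit was at 0.29.

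JEKO-1 against MINO-P, from the model that adjusts for treatment, had 24 subunits higher and 5 lower, against 18.6% and 15.1% of all genes, and a median of 0.17. Z138 against MINO-P had 5 higher and 13 lower, against 18.7% and 17.7% of genes, with a median of -0.15. Z138 against JEKO-1 had 10 higher and 37 lower, against 25.4% and 27.4% of genes, with a median of -0.44. With chromosome M kept in the totals, as deposited, these splits became 7 higher and 8 lower, 5 and 4, and 16 and 15, so the counts changed with that scaling. Without JEKO-1 BTZ replicate 3 they were 32 higher and 6 lower in JEKO-1 against MINO-P and 9 higher and 47 lower in Z138 against JEKO-1. The shares of all genes called higher or lower in these refits are not given here, so the recounts have no background beside them.

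By complex, Z138 was lower than JEKO-1 in 16 of 36 complex I subunits, 1 of 4 of complex II, 4 of 9 of complex III, 5 of 12 of complex IV and 11 of 18 of complex V. Complex V had the lowest median, -0.71. In JEKO-1 against MINO-P, 12 subunits of complex I and 7 of complex V were higher, and complex III was split, with 2 higher and 2 lower.

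**Figure D3:**
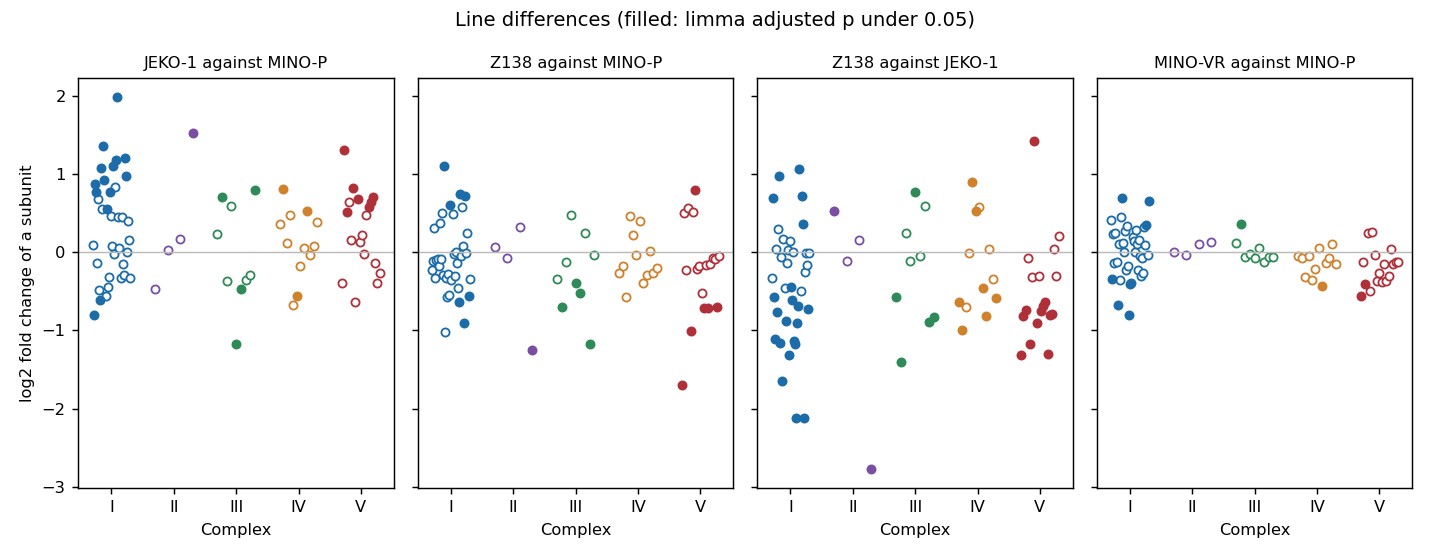
Log2 fold change of each subunit between lines, by complex. Filled points passed limma's adjusted p under 0.05, and the complex V points of Z138 against JEKO-1 lie mostly below 0, with 11 of 18 lower.

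SDHD, a membrane anchor of complex II (chr11:112086824-112120017), showed the largest line difference. It ran from 132.3 to 290.9 CPM in JEKO-1 (median 219.9), 68.4 to 99.9 CPM in MINO-VR (90.8), 48.0 to 98.5 CPM in MINO-P (76.3) and 24.5 to 50.7 CPM in Z138 (31.4). The order JEKO-1, MINO-VR, MINO-P, Z138 held for the medians. No JEKO-1 sample overlapped another line, while MINO-P and MINO-VR overlapped almost fully. In Z138 against JEKO-1, SDHD fell by 2.78 on the log2 scale (SE 0.13, limma adjusted p = 1.25e-20), and 93.3% of its variance over the 48 samples lay between lines. In the same comparison SDHA was 0.53 higher (limma adjusted p = 0.0209), and SDHB had -0.11 and SDHC 0.16 (limma adjusted p = 0.732 and 0.522).

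NDUFC1, an accessory subunit of complex I (chr4:139266880-139302552), was likewise set apart in JEKO-1, at 23.8 to 81.1 CPM against 5.15 to 21.5 CPM in MINO-P, 9.70 to 23.1 CPM in MINO-VR and 6.97 to 17.8 CPM in Z138. It overlaps the tested genes MGARP and NAA15. NDUFC1 was 1.99 higher in JEKO-1 than in MINO-P (SE 0.25, limma adjusted p = 3.28e-08) and fell by 2.12 in Z138 against JEKO-1. NDUFS6, which sits near the iron-sulfur arm of complex I, had medians of 93.3 CPM in JEKO-1, 36.9 CPM in MINO-P, 29.4 CPM in MINO-VR and 17.2 CPM in Z138. NDUFA8, another complex I accessory subunit, was 1.37 higher in JEKO-1 than in MINO-P (SE 0.25, limma adjusted p = 3.8e-05), with medians of 79.9 and 28.8 CPM.

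ATP5F1A (chr18:46080248-46104335) separated Z138 from the MINO cultures: 132.8 to 332.2 CPM in Z138, 514.7 to 1176 CPM in MINO-P and 420.2 to 733.7 CPM in MINO-VR. JEKO-1 had 140.9 to 907.2 CPM, the lowest value being BTZ replicate 3. In Z138 against MINO-P, ATP5F1A fell by 1.70 (SE 0.19, limma adjusted p = 1.53e-09). UQCRC2, the second core protein of complex III (chr16:21953288-21983661), had its lowest levels in JEKO-1, at 38.2 to 106.5 CPM, against 71.6 to 277.3 CPM in MINO-P, 153.3 to 264.1 CPM in MINO-VR and 99.8 to 173.4 CPM in Z138. UQCRC2 had -1.17 in JEKO-1 against MINO-P (SE 0.17, limma adjusted p = 7.61e-07), in the opposite direction to most called subunits.

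ATP5MC2, a further c-ring gene, had its highest median in Z138, at 385.8 CPM, against 137.4 CPM in JEKO-1. It was 1.43 higher in Z138 than in JEKO-1 (limma adjusted p = 1.71e-06). NDUFA5 was 0.98 higher in Z138 than in JEKO-1, and in JEKO-1 against MINO-P it had -0.61 and NDUFA10 -0.80, both called. NDUFS7, a core subunit, was 0.73 higher in Z138 than in MINO-P (limma adjusted p = 0.0381), a call lost in 9 of 38 alternatives. Of the rest of the panel, NDUFB8 had -1.13 and COX4I1 -0.63 in Z138 against JEKO-1 (limma adjusted p = 0.00101 and 0.0391). The call of COX4I1 was lost in 20 of 36 alternatives, and that of NDUFB8 in 0 of 36.

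**Figure D4:**
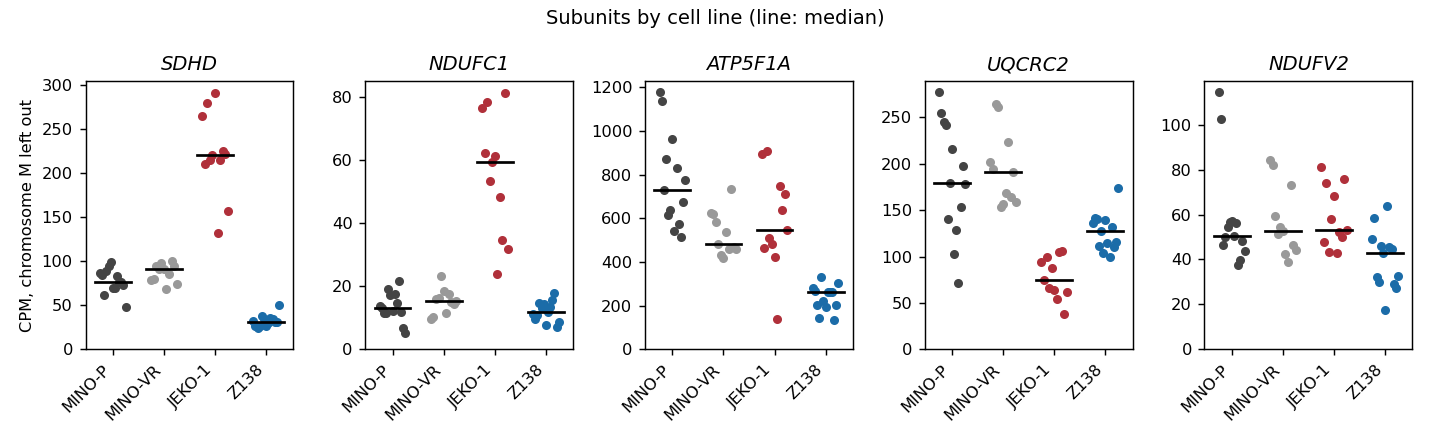
CPM of 5 subunits in each of the 48 samples by cell line, with a bar at the line's median. SDHD and NDUFC1 in JEKO-1 lie above all other lines, ATP5F1A in Z138 lies below both MINO cultures, and NDUFV2 overlaps in all 4 lines.

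MINO-VR against MINO-P, fitted on the 21 samples of their shared treatments, had 4 subunits higher and 7 lower of 78 tested, against 9.89% and 7.24% of 14534 genes, and a median of -0.05. NDUFA8 was 0.70 higher (SE 0.14, limma adjusted p = 0.0023) and NDUFV3, a complex I subunit, 0.66 higher (SE 0.11, limma adjusted p = 0.000636). NDUFB4 fell by 0.80 (SE 0.12, limma adjusted p = 0.000217), ATP5F1A by 0.56 (SE 0.11, limma adjusted p = 0.00199) and COX7A2L, a factor for joining complexes III and IV, by 0.43 (SE 0.12, limma adjusted p = 0.0176). Over all samples, NDUFB4 ran from 17.2 to 41.3 CPM in MINO-VR and from 34.7 to 80.1 CPM in MINO-P, so the ranges overlapped slightly.

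Line differences of subunits went with those of the genes beside them. For each subunit with at least 5 other tested genes within 1 Mb, the median of those genes (subunits and overlapping genes left out) was compared with the subunit's own log2 fold change. Pearson's r across subunits was 0.795 in MINO-VR against MINO-P (72 subunits), 0.668 in JEKO-1 against MINO-P, 0.582 in Z138 against JEKO-1 and 0.544 in Z138 against MINO-P (74 each). Across all genes with a median of at least 10 CPM, r was 0.544, 0.456, 0.372 and 0.294 in the same order. Genes share libraries and are not independent, so these values are descriptions. Around ATP5F1A, 12 genes were tested in Z138 against MINO-P, of which 7 were lower and 1 higher, with a median of -1.26, beside -1.70 for ATP5F1A itself. Near SDHD, 14 of 21 genes were lower in Z138 than in JEKO-1, with a median of -0.99. Beside NDUFA8, 9 of 19 genes were higher and none lower in JEKO-1 against MINO-P, and 8 of 17 were higher and none lower in MINO-VR against MINO-P. The neighbours of NDUFS6 had a median of -0.16 in Z138 against JEKO-1, beside -2.12 for NDUFS6.

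**Figure D5:**
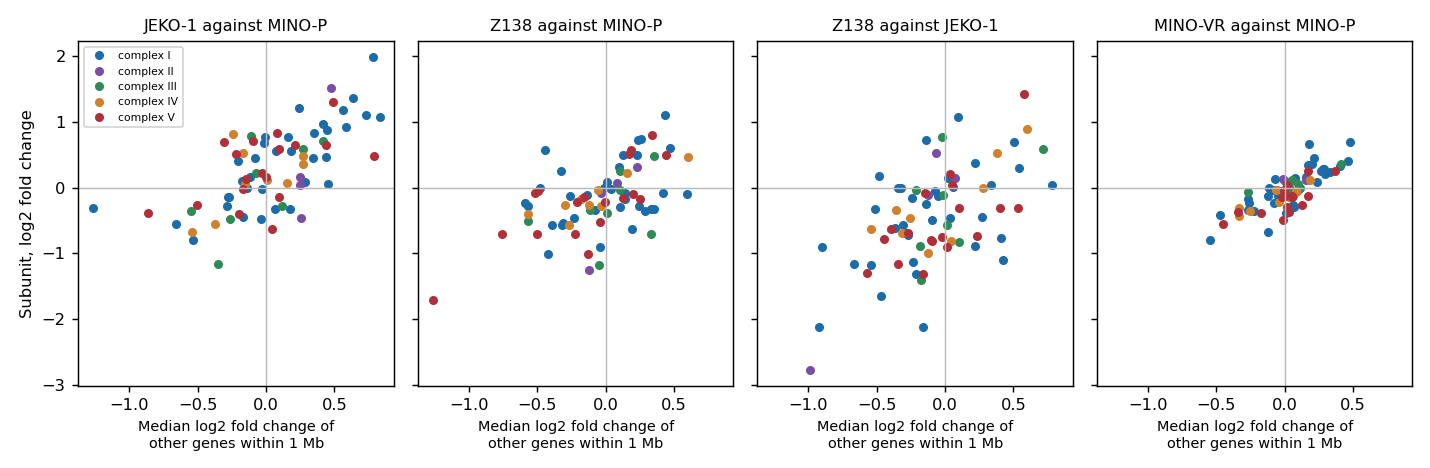
Log2 fold change of each subunit (y axis) against the median of other tested genes within 1 Mb (x axis) in the 4 line comparisons, coloured by complex. Points rise from lower left to upper right in each panel, most tightly in MINO-VR against MINO-P (r of 0.795 over 72 subunits).

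After each line's mean was taken off, most pairs of the 79 tested subunits were positively correlated over the 48 samples: the median r over 3081 pairs was 0.469, and 2775 pairs were positive. Pairs within a complex (median 0.476) and pairs across complexes (median 0.469) had similar medians, and complex IV had the highest median within a complex, 0.607. The samples share a scaling, and no r was computed for pairs of other genes, so these values have no background beside them. Without JEKO-1 BTZ replicate 3 the median r was 0.37, with 2647 positive pairs, and complex IV was at 0.564. NDUFS1, the large iron-sulfur subunit of complex I, and NDUFA5 ran against the rest, with a mean r of -0.39 and -0.24 with the other subunits, as did the barely expressed ATP5MGL, at -0.43. Without that library these were -0.29, 0.02 and -0.12. The steadiest subunit was ATP5PO of the stator stalk, with an SD of 0.37 on the log2 scale, and the most variable was ATP5F1D, with an SD of 1.05. That rank rested on JEKO-1 BTZ replicate 3, with 0.443 CPM of ATP5F1D, since the other 47 samples ran from 27.7 to 198.4 CPM. Without it ATP5F1D had an SD of 0.64, SDHD was the most variable subunit and ATP5MGL the least. UQCRHL is an intronless copy of UQCRH, so how reads split between the pair is uncertain.

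Related mitochondrial genes were counted by list. In BTZ against CON, 8 of 49 assembly factors, 5 of 14 citric acid cycle enzymes, 3 of 14 regulators and 16 of 77 mitochondrial ribosomal proteins were lower. None was higher, and of all genes 12.8% were lower and 4.0% higher. Without JEKO-1 BTZ replicate 3 these counts were 8, 5, 2 and 12 lower and 2, 1, 0 and 2 higher. Of all genes, 14.2% were then lower and 6.56% higher. The citric acid cycle enzyme IDH2 fell by 2.17 (SE 0.33, limma adjusted p = 3.33e-05), and by 1.84 without that library. NRF1, the activator named above, fell by 1.15 (SE 0.27, limma adjusted p = 0.00298), and by 1.03 without the library. CYC1, the cytochrome c1 subunit of complex III that the symbol rule does not reach, fell by 2.0 (limma adjusted p = 0.021), and by 0.80 without it. In IBR against CON, 1 of 49 assembly factors, 3 of 14 citric acid cycle enzymes, 2 of 14 regulators and 6 of 77 mitochondrial ribosomal proteins were lower. None was higher, and of all genes 4.88% were lower and 3.19% higher. CYCS, cytochrome c itself, fell by 0.86 (SE 0.23, limma adjusted p = 0.0168). The regulators lower in IBR were TFAM and TFB2M, which act on mitochondrial transcription, with -0.94 and -0.93 (limma adjusted p = 0.017 and 0.0345).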

How the data were processed

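Per the labels' protocols, RNA was isolated on spin columns and poly-A libraries were made with an Illumina TruSeq v2 kit, and per the submitters' processing notes Partek and the hg38 build were used. The aligner, annotation and strand setting are not given in the sources used here. The deposited values were log2(CPM + 1) by the authors: undone, each library summed to 999984.0 to 1000008.6. Between 80.9% and 90.3% of low values were whole reads (tolerance 0.1 read), too few to recover counts for nearly all genes, so no count test was run. Values under 1e-06 were set to 0, and 1 row without a gene name (at most 0.00077% of a library) and chromosome M were dropped.

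The 8 pairs whose names differ by a final a (chi-square per degree of freedom 4.09 to 8.71, against 52.5 to 365 in other pairs of a group) were averaged as 1 sample each. In Z138, a final A pairs 2 libraries in each of 5 treatments; the gap within pairs correlated between treatments (r 0.239 to 0.626 over 14120 genes), so a fit with this suffix as a replicate block was added. limma 3.58.1 (R 4.3.3) with a trend was fitted on log2(CPM + 1), pseudocount 1, for genes with at least 1 CPM in 2 samples, with treatment, line and library series (HK or MCL) as terms, on 48 samples and 16755 genes. MINO-VR against MINO-P was fitted on 21 samples, and the interaction with CLF on 13. A gene was called where its p, adjusted over all genes by Benjamini-Hochberg, was under 0.05. Fold changes on this scale understate changes of low genes. The fit was checked on simulated data.

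GC content came from the longest coding transcript of each gene in GENCODE. Named were 1 panel gene per complex, up to 3 rises and 3 falls per comparison among called subunits with at least 1 CPM and 1 direction in every line or treatment, and tissue isoforms; ATP5F1D, SDHA, ATP5MC1, NDUFS1 and the genes of other lists were named after their values were seen. The members and lists were chosen with earlier results of these data known. Alternatives were scaling, averaging, filter, pseudocount, weights, terms, lines, library ranges, GC trend (lowess, span 0.3) and leaving out each sample. A named result is not reported here.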

Additional observations from a re-analysis of the deposited data

Results flagged for a closer look

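NDUFB8 was set off by a gap test within treatment groups of 4 to 10 samples (Dixon's test at the 95% level), which flagged 2 of 42 groups examined over the summed level and the panel genes, about what chance gives at 1 in 20. Among 5 BTZ samples, JEKO-1 BTZ replicate 3 had 11.8 CPM of NDUFB8, and the nearest other sample had 87.1 CPM. This is the library with the strong fall of values with GC content. Among 8 IBR samples, JEKO-1 IBR replicates 1 and 2, averaged as 1 sample, had 172.4 CPM of NDUFB8, and the nearest other sample had 83.0 CPM.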

How the results depend on the processing

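Of 400 recomputed counts of called subunits over 15 comparisons, 345 stayed within 1.5 times the reported count, and no named subunit reversed in a called direction. BTZ against CON had 26 called as deposited, 8 with size factors, 2 in JEKO-1 and Z138 only, 1 in Z138 only, 3 without JEKO-1, 7 with the GC trend removed, and 5 to 29 with 1 sample left out: 5 without JEKO-1 CON, 5 without JEKO-1 BTZ replicate 3 and its GC trend, 9 without that library alone, 10 without MINO-P BTZ and 29 without Z138 BTZ. IBR against CON had 0 as deposited, with size factors, with groups averaged, in JEKO-1 and Z138 only, in Z138 only and without JEKO-1, 2 with every library as a sample, 2 with the GC trend removed, 2 with the Z138 name suffix as a replicate block, 11 with array weights, 6 without the series term, 7 without MCL20-37 and 0 to 1 with 1 sample left out (0 without MINO-P CON, JEKO-1 CON, either Z138 CON, Z138 IBR replicate 2, MINO-VR IBR replicate 3 or either JEKO-1 IBR sample). YM155 against CON had 1 with size factors, every library as a sample, no filter, no series term or the GC trend removed, 2 with array weights, 3 with groups averaged, 6 without MCL20-37 and 0 to 1 with 1 sample left out. Combinations had 4 (BTZ_YM155 against BTZ, name range as a term) and 3 (IBR_YM155 against IBR, without MCL20-37). JEKO-1 against MINO-P had 15 as deposited. Z138 against MINO-P had 9 as deposited, 37 with array weights and 39 without MCL20-37. Z138 against JEKO-1 had 31 as deposited and 26 with the name range as a term. That term cannot adjust Z138 for its own range, since MCL11-18 held all Z138 libraries and no others. MINO-VR against MINO-P had 18 with every library as a sample, 23 with array weights and 18 without MCL20-37. The interaction of CLF and IBR had 1 with every library as a sample. That of BTZ and JEKO-1 had 35 as deposited and 0 to 43 with 1 sample left out, 43 being without JEKO-1 BTZ replicates 1 and 2, which leaves the library that stood apart. The cause of each shift was not tested. Shares of all genes called are not given here for these refits, so the recounts have no background beside them. The exception is BTZ against CON without JEKO-1 BTZ replicate 3, whose shares are given above. The terms for name range and GC trend and the BTZ interaction were chosen after seeing the data. BTZ_YM155 against BTZ without MCL20-37, and interactions without a group's lone sample, could not be fitted. The replicate block of the Z138 suffix, added after seeing the data, moved no other count by over 1.5 times (BTZ against CON had 20 with it) and changed no call of a named subunit.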
